A study of Arabidopsis thaliana with 18 samples.

Results

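The cysteine-rich receptor-like kinases (CRKs) are a family of plant membrane proteins, and 38 CRK genes of Arabidopsis thaliana were followed here through an ozone exposure. The members were taken by a fixed list of gene codes, and all 38 were found among the 32678 genes of the count files. Of these, 19 genes, CRK5 to CRK8 and CRK10 to CRK24, lie side by side on chromosome 4 between the start of CRK5 and the end of CRK24 (TAIR10, chr4:12117541-12191977) and are called the tandem cluster. The other 19 members lie elsewhere, in smaller groups on chromosome 4 (CRK36 to CRK40, CRK30 to CRK34, and the pair CRK28 and CRK29), as the pair CRK2 and CRK3 on chromosome 1, or alone (CRK4, CRK25, CRK26, CRK41 and CRK42).

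A CRK protein has an extracellular part with cysteine-rich DUF26 motifs, a membrane-spanning segment and a kinase domain inside the cell. The family is known for transcripts that rise with pathogens, salicylic acid and reactive oxygen, and several members act with pattern receptors or with the NADPH oxidase that makes extracellular reactive oxygen. Ozone enters leaves through stomata and breaks down into reactive oxygen in the cell wall space, the compartment that the extracellular domain of a CRK faces.

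Messenger RNA was sequenced from whole rosettes of 3-week-old plants of the accessions Col-0 and Cvi-0 and of Col-S, a near-isogenic line with Col-0 and Cvi-0 as its parents. Each genotype was sampled as unexposed controls and after 2 h at 350 ppb ozone, giving 6 groups of 3 biological replicates, and the RNA of each replicate represents 10 to 15 pooled rosettes. Which segments of Cvi-0 the line Col-S carries is not given in the sources used here. Libraries held 14905841 to 26171613 gene counts, so that 3 counts correspond to 0.115 to 0.201 CPM, a gene's counts scaled to a common library total; the levels given from here on are also TMM scaled.

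Rosette leaf markers were high in every library, and root and flower markers were low. The summed level of 5 such genes was 49020 to 51220 CPM in Col-0 controls and 29620 to 39810 CPM after ozone. It went from 43270 to 47150 CPM in controls to 15940 to 19570 CPM after ozone in Cvi-0, and from 43640 to 48540 CPM to 20990 to 25480 CPM in Col-S. Summed root markers reached at most 0.385 CPM, with EXPA7 at 0 counts throughout, and summed flower markers at most 2.81 CPM. In bulk rosettes, fewer cells of a type and less RNA per cell cannot be told apart, and the part of the fall in leaf markers in the CRK values was not tested.

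Col-0 control replicate 2 stood apart from the other 2 Col-0 controls for this family. It was the highest of the 3 for 27 of 36 tested members, against 36.1% of all tested genes, and lay at least 2-fold above both others for 10 members, against 4.48% of all tested genes. CRK6, for instance, stood at 38.8 CPM there and at 6.06 and 8.77 CPM in replicates 1 and 3. ICS1, which makes the precursor of salicylic acid, stood at 46.6 CPM there against 21.5 and 19.8 CPM, and CBP60G, a regulator of ICS1, at 23.03 against 7.417 and 6.501 CPM. For members, ozone changes and called differences that this library moved by over 1.5-fold are given with and without it. The same holds for member calls that ended without it. Fold changes of genes outside the member list are given with all libraries only.

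Reads of near-identical members can be assigned to either copy, and how the authors' counting treated reads with several matches is not given in the sources used here. CRK6 and CRK8 share an identical stretch of 678 bases and CRK13 and CRK22 one of 309 bases, so that 78.1% and 83.5% of exon 50-mers are unique in the nuclear genome for CRK6 and CRK8, and 84.6% and 83.9% for CRK13 and CRK22. For every member but these 4, at least 93.3% of 50-mers are unique, and the next closest pairs share stretches of 135 bases (CRK39 and CRK40) and 120 bases (CRK17 and CRK18). Because reads of all genotypes were counted on the Col-0 reference, a lower Cvi-0 value from lower expression and one from sequence or copy differences cannot be told apart.

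Before the levels, promoters of members on which the results turn are shown, because WRKY factors, which rise with salicylic acid and pathogens, bind a motif called the W-box with the core TTGAC. Each sequence is the 300 bases before the RefSeq gene start (assembly TAIR10.1, which shares nuclear coordinates with the files), read toward the gene, with TTGAC and its reverse complement GTCAA in capitals. CRK11 (AT4G23190, chr4:12143859-12144158, minus strand) and CRK5 (AT4G23130, chr4:12120221-12120520, minus strand) hold the most matches in the tandem cluster. CRK13 (AT4G23210, chr4:12151639-12151938, minus strand) and CRK22 (AT4G23300, chr4:12181325-12181624, plus strand) rose most in Cvi-0 relative to Col-0. CRK21 (AT4G23290, chr4:12180937-12181236, minus strand) fell, and its start faces that of CRK22 across 688 bases.
CRK11: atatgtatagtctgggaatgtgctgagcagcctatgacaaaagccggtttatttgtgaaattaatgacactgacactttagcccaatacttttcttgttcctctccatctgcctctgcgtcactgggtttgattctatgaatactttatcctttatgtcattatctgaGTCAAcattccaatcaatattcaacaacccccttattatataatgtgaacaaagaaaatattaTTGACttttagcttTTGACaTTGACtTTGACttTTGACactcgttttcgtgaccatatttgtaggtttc
CRK5: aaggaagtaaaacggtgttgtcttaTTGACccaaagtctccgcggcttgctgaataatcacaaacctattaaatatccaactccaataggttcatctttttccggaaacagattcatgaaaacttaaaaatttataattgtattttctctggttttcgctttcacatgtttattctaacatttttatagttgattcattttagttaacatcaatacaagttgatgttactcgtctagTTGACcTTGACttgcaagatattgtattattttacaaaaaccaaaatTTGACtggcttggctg
CRK13: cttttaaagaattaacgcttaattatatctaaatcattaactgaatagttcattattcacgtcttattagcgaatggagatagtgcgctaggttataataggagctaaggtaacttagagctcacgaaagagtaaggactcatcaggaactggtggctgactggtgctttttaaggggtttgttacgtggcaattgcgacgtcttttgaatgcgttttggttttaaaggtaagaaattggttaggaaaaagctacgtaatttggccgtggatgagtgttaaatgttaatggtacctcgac
CRK22: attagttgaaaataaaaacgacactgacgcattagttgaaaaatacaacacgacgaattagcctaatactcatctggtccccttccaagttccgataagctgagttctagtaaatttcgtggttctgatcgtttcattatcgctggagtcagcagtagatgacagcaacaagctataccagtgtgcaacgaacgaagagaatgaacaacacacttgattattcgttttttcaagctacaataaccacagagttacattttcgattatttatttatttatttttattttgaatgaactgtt
CRK21: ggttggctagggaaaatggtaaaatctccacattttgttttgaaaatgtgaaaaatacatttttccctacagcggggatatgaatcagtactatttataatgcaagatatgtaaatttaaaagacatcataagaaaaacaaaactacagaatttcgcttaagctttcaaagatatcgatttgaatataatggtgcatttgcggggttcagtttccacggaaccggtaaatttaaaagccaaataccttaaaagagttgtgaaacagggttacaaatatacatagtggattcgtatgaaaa

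The core was found 6 times in CRK11 and 4 times in CRK5, and not in these windows of CRK13, CRK22 or CRK21. At least 1 TTGAC on either strand was found before 29 of 38 members (76.3%) and before 50.1% of 31911 nuclear genes, and at least 2 before 47.4% of members and 17.7% of all genes. The longer forms TTGACC or TTGACT, which contain the core, were found before 63.2% of members and 32.1% of all genes. The tandem cluster (14 of 19) and the other members (15 of 19) held the core at like shares. For 9 members another gene reaches into the window. With windows placed before the gene starts of the count files, at least 1 core stood before 84.2% of members and 50.2% of all genes. A match is a description of these letters and not evidence of binding.

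Ozone raised most of the family in each genotype. Genes were called at an adjusted p under 0.05 over 20622 tested genes (edgeR quasi-likelihood test with Benjamini-Hochberg adjustment), and 36 of the 38 members passed the filter for low counts. In Col-0, 30 members rose, 2 fell and 4 were not called, where 29.8% of all tested genes rose and 27.5% fell. In Cvi-0, 29 rose, 2 fell and 5 were not called, beside 34.5% and 36.1% of all genes. In Col-S, 32 rose, 2 fell and 2 were not called, beside 34.3% and 34% of all genes. The same 28 members rose in all 3 genotypes, and CRK21 and CRK42 fell in all 3. The summed level of the family went from 546.5 ± 85.1 to 2338 ± 166 CPM in Col-0, from 318.3 ± 51.2 to 3106 ± 123 CPM in Cvi-0 and from 471.6 ± 12.3 to 3375 ± 273 CPM in Col-S (SD, n = 3 each).

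The tandem cluster and the other members shared this direction. In the tandem cluster 17, 16 and 18 of 19 members rose in Col-0, Cvi-0 and Col-S, with median log2 fold changes of 2.20, 2.22 and 3.05. Among the others 13, 13 and 14 of 17 tested members rose, with medians of 2.68, 3.32 and 3.55. The medians of all tested genes were -0.02, -0.05 and -0.03. Without Col-0 control replicate 2 the Col-0 medians were 2.85 for the tandem cluster and 3.15 for the others. After ozone the tandem members together held 1465 ± 132 CPM in Col-0, 2510 ± 113 CPM in Cvi-0 and 2052 ± 178 CPM in Col-S, and the others 873 ± 38.2, 597.1 ± 36.9 and 1323 ± 110 CPM. CRK13 alone made up 39.9% of the family's CPM in ozone-treated Cvi-0, against 7.06% in Col-0 and 12.9% in Col-S.

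**Figure D1:**
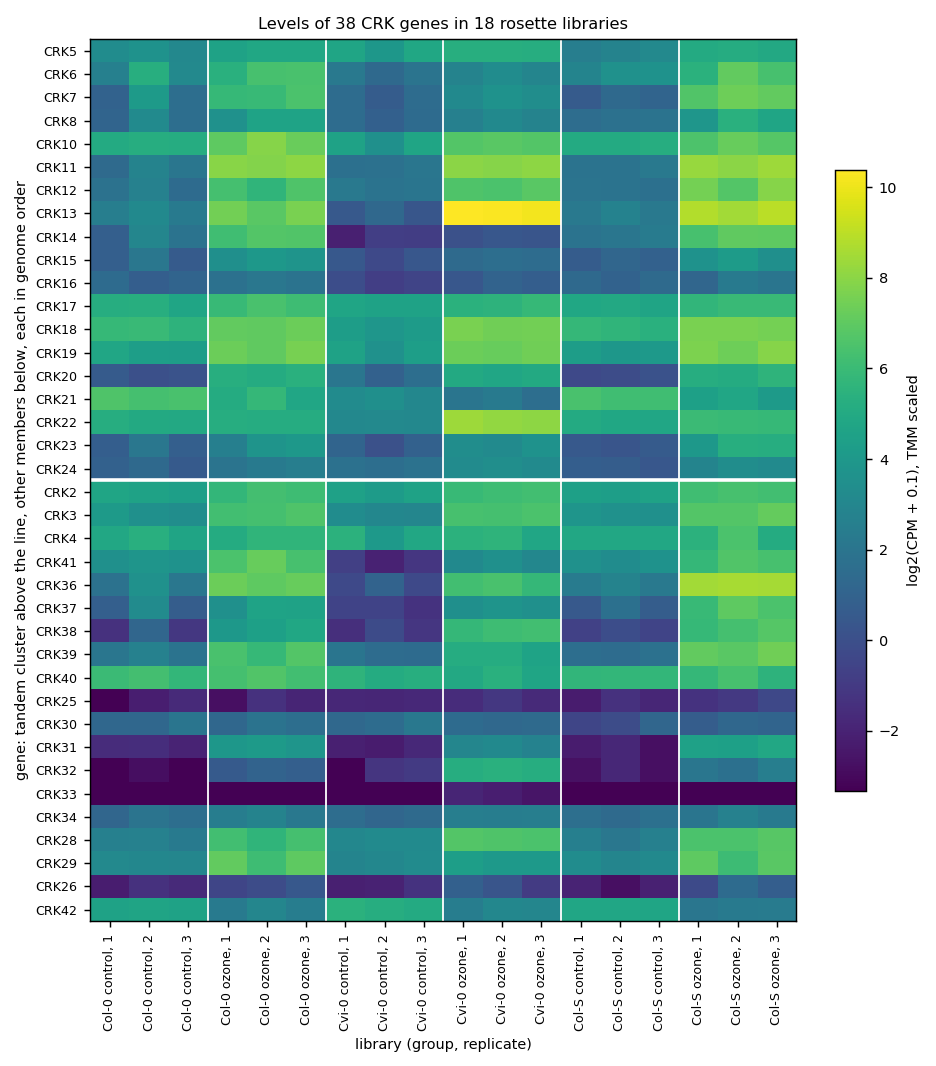
Level of each of the 38 CRK genes (rows, tandem cluster above the white line, genome order within each block) in each of the 18 libraries (columns, by group and replicate), as log2(CPM + 0.1) with TMM scaling. Most rows brighten from control to ozone in every genotype, CRK13 is brightest in the 3 Cvi-0 ozone libraries (1137 to 1336 CPM), and CRK33 is dark except there.

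**Figure D2:**
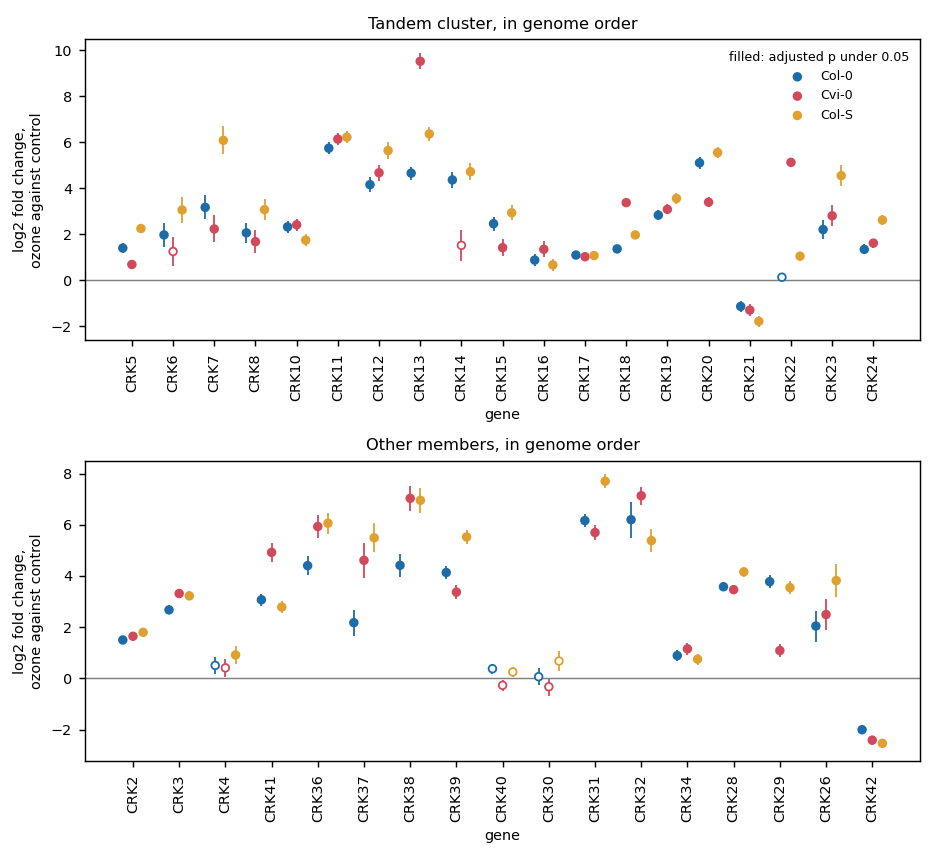
Log2 fold change of ozone against control for the 36 tested members, by genotype (colour), with bars of 1 SE and filled points where the adjusted p was under 0.05. CRK21 and CRK42 lie below 0 in all 3 genotypes, and CRK22 ranges from 0.12 in Col-0 to 5.12 in Cvi-0.

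Among members with the largest average change in the tandem cluster, CRK11 rose strongly in all 3 genotypes. CRK11, once named RLK3, is known as a gene induced by oxidative stress. In Col-0 it stood at 2.53, 6.96 and 4.13 CPM in the control libraries and 248.5, 228.8 and 264.1 CPM in the ozone libraries. In Cvi-0 the values were 3.18, 3.42 and 4.12 CPM in the control libraries and 254.3, 238.3 and 263.7 CPM in the ozone libraries, and in Col-S 3.69, 3.63 and 4.63 CPM in the control libraries and 303, 258.3 and 332 CPM in the ozone libraries. Every ozone library lay far above every control library. The log2 fold change was 5.74 (SE 0.25, adjusted p = 1.33e-11) in Col-0, 6.13 (SE 0.26, adjusted p = 3.6e-12) in Cvi-0 and 6.22 (SE 0.26, adjusted p = 3.91e-12) in Col-S, and no difference of responses between genotypes was called.

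CRK12, for which no difference of responses was called either, stood at 3.47, 6.42 and 2.68 CPM in the control libraries and 81.98, 49.1 and 96.8 CPM in the ozone libraries in Col-0. Cvi-0 showed 4.58, 3.64 and 3.92 CPM in the control libraries and 99.03, 92.1 and 116.2 CPM in the ozone libraries. Col-S showed 3.75, 3.63 and 3.27 CPM in the control libraries and 184.6, 105.7 and 240 CPM in the ozone libraries. Controls overlapped between genotypes, and replicate 2 was the lowest ozone library in each. Its log2 fold changes were 4.15, 4.67 and 5.64 in Col-0, Cvi-0 and Col-S, with adjusted p values of 1.38e-08, 2.24e-09 and 3.51e-10. The Col-S response minus that of Col-0 was 1.485 (SE 0.45, adjusted p = 0.0835), and with a replicate block it was called, at 1.52 (adjusted p = 0.0493).

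CRK20, whose overexpression is known to trigger cell death in leaves, started from a low level. Col-0 libraries held 1.41, 0.9 and 1.03 CPM in the control libraries and 37.9, 34.3 and 41.3 CPM in the ozone libraries. Cvi-0 libraries held 4.07, 1.78 and 3.003 CPM in the control libraries and 31.5, 27.1 and 31.4 CPM in the ozone libraries, and Col-S libraries 0.728, 0.813 and 0.999 CPM in the control libraries and 36.8, 34.8 and 48.9 CPM in the ozone libraries. The Cvi-0 controls lay above all Col-0 and Col-S controls, and the Cvi-0 ozone libraries below all other ozone libraries. The change was 5.10 (SE 0.25, adjusted p = 3.24e-11) in Col-0, 3.39 (SE 0.22, adjusted p = 4.42e-10) in Cvi-0 and 5.55 (SE 0.25, adjusted p = 9.39e-12) in Col-S, and the Cvi-0 response minus that of Col-0 was -1.71 (SE 0.33, adjusted p = 0.00177) on the log2 scale. Its neighbour CRK19, also known for cell death on overexpression and 90.0% identical to CRK20 in aligned coding bases, changed by 2.83, 3.08 and 3.55.

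Outside the tandem cluster, CRK31 and CRK32 went from the edge of detection to clear levels. CRK31 stood at 0.235, 0.245 and 0.155 CPM in the control libraries and 15.2, 17.8 and 14.3 CPM in the ozone libraries in Col-0, at 0.127, 0.109 and 0.204 CPM in the control libraries and 7.69, 8.91 and 6.68 CPM in the ozone libraries in Cvi-0, and at 0.104, 0.191 and 0.0454 CPM in the control libraries and 22.8, 21.9 and 29.8 CPM in the ozone libraries in Col-S. The ozone libraries of Cvi-0 lay below those of the other two genotypes without overlap. Its changes were 6.17 (SE 0.25, adjusted p = 6.59e-12) in Col-0, 5.70 (SE 0.28, adjusted p = 1.58e-11) in Cvi-0 and 7.70 (SE 0.27, adjusted p = 9.9e-13) in Col-S.

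For CRK32 the Col-0 controls held 1 count in all, in replicate 2, and its ozone level was 1.37, 1.93 and 1.68 CPM. The ratio of ozone to control was 101.9 with an exact 95% counting interval of 17.9 to 4064, which covers counting error only. Cvi-0 went from 0, 0.328 and 0.407 to 36.8, 41.5 and 37.4 CPM and Col-S from 0.052, 0.191 and 0.0454 to 4.14, 3.22 and 5.65 CPM. After ozone the Cvi-0 libraries lay above all others. The log2 fold change was 6.20 (SE 0.71, adjusted p = 1.06e-06) in Col-0, 7.14 (SE 0.36, adjusted p = 1.91e-11) in Cvi-0 and 5.38 (SE 0.47, adjusted p = 2.02e-08) in Col-S. In Col-0 it was 8.02 (adjusted p = 1.5e-05) without Col-0 control replicate 2, which leaves controls with no count.

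CRK36, which is known to act with the cytoplasmic kinase BIK1 in immunity, reached its highest level in Col-S. In Col-0 it measured 3.53, 12.2 and 4.28 CPM in the control libraries and 160.9, 126.9 and 146 CPM in the ozone libraries. In Cvi-0 it measured 0.7, 1.93 and 0.713 CPM in the control libraries and 75.96, 87.1 and 56.9 CPM in the ozone libraries, and in Col-S 5.15, 6.84 and 4.63 CPM in the control libraries and 356.8, 380.8 and 373.5 CPM in the ozone libraries. The ozone groups did not overlap, with Cvi-0 lowest and Col-S highest. The change was 4.41 (SE 0.38, adjusted p = 2.77e-08) in Col-0, 5.93 (SE 0.44, adjusted p = 2.32e-09) in Cvi-0 and 6.06 (SE 0.40, adjusted p = 7.15e-10) in Col-S, and in Col-0 it was 5.20 (adjusted p = 7.41e-10) without Col-0 control replicate 2. No difference from the Col-0 response was called, at 1.53 (SE 0.54, adjusted p = 0.0543) for Cvi-0 and 1.66 (SE 0.49, adjusted p = 0.0748) for Col-S. With a replicate block they were called, at 1.46 (adjusted p = 0.0298) and 1.58 (adjusted p = 0.0312).

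CRK38 measured 0.294, 2.17 and 0.361 CPM in the control libraries and 15.9, 21.99 and 28.4 CPM in the ozone libraries in Col-0. The Cvi-0 values were 0.255, 0.764 and 0.356 CPM in the control libraries and 56.2, 68.7 and 74.3 CPM in the ozone libraries, and the Col-S values 0.52, 0.861 and 0.59 CPM in the control libraries and 57.6, 81.8 and 108.9 CPM in the ozone libraries. Col-0 ozone libraries were the lowest of the 3 ozone groups, and Col-0 control replicate 2 the highest control. The change was 4.42 (SE 0.45, adjusted p = 2.26e-07) in Col-0, 7.03 (SE 0.50, adjusted p = 1.36e-09) in Cvi-0 and 6.96 (SE 0.48, adjusted p = 1.14e-09) in Col-S, and in Col-0 it was 6.04 (adjusted p = 9.76e-09) without Col-0 control replicate 2. The response in Cvi-0 exceeded that in Col-0 by 2.62 (SE 0.73, adjusted p = 0.017), and without Col-0 control replicate 2 by 0.99 (adjusted p = 0.415), which was not called. That in Col-S exceeded Col-0 by 2.54 (SE 0.71, adjusted p = 0.0602), which was not called. With a replicate block the Col-S difference was called, at 2.52 (adjusted p = 0.0191). It includes the same Col-0 change, which was 6.04 and not 4.42 without Col-0 control replicate 2.

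The remaining members that rose in all 3 genotypes did so by smaller amounts or by amounts given further on. CRK2, which is known to phosphorylate the NADPH oxidase RBOHD, changed by 1.5, 1.64 and 1.80 (log2, in Col-0, Cvi-0 and Col-S), and its neighbour CRK3 by 2.67, 3.31 and 3.22. CRK28, known to associate with the co-receptor BAK1, changed by 3.58, 3.47 and 4.16. CRK10 changed by 2.31, 2.40 and 1.74, CRK15 by 2.45, 1.41 and 2.93, CRK17 by 1.09, 1.02 and 1.07, CRK26 by 2.04, 2.49 and 3.82 and CRK34 by 0.89, 1.15 and 0.75. CRK17 is also named EMB1290 for an embryo defect of its mutants. CRK26 stayed low, between 0.0478 and 2.65 CPM over all libraries. Without Col-S ozone replicate 2 the Col-S change of CRK34 was 0.52 (adjusted p = 0.0517).

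CRK6, CRK7 and CRK8 lie next to each other, and CRK6 and CRK7 are known to take part in responses to extracellular reactive oxygen. The log2 fold change of CRK6 was 1.97 (SE 0.54, adjusted p = 0.0047) in Col-0, 1.24 (SE 0.63, adjusted p = 0.0859) in Cvi-0 and 3.05 (SE 0.56, adjusted p = 0.000132) in Col-S, so that the Cvi-0 change was not called. With other settings that Cvi-0 change was called. It was 1.28 (adjusted p = 0.000386) with the Cvi-0 groups alone and 1.24 (adjusted p = 0.0163) without Col-0 control replicate 2. CRK8 changed by 2.06, 1.67 and 3.06, and all its calls passed. The Col-0 changes without Col-0 control replicate 2 were 3.25 (adjusted p = 1.98e-05) for CRK6, 2.995 (adjusted p = 2.01e-05) for CRK8 and 3.14 (adjusted p = 5.72e-08) for CRK15. CRK5, known for roles in stomatal and abscisic acid responses, changed by 1.39, 0.68 and 2.24, and its rise in Col-S exceeded that in Cvi-0 by 1.56 (SE 0.29, adjusted p = 0.00378).

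CRK21 and CRK42 were the members that fell. CRK21 stood at 96.4, 81.5 and 85.8 CPM in the control libraries and 34.4, 56.5 and 27.8 CPM in the ozone libraries in Col-0. It stood at 9.74, 11.3 and 8.09 CPM in the control libraries and 3.88, 4.93 and 2.96 CPM in the ozone libraries in Cvi-0, and at 88.7, 72.6 and 73.3 CPM in the control libraries and 21.8, 27.9 and 17.7 CPM in the ozone libraries in Col-S. All ozone libraries lay below all controls of the same genotype, and every Cvi-0 library lay below every library of the other two genotypes. The change was -1.15 (SE 0.22, adjusted p = 0.000281) in Col-0, -1.31 (SE 0.26, adjusted p = 0.000272) in Cvi-0 and -1.80 (SE 0.23, adjusted p = 2.19e-06) in Col-S. CRK42, which overlaps a gene on the opposite strand (AT5G40382) so that reads may be shared, changed by -2.01, -2.41 and -2.54. Both genes flanking CRK21, CRK20 and CRK22, rose in Cvi-0 and Col-S while CRK21 fell.

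The members with no call in at least 2 genotypes were CRK4, CRK30 and CRK40. CRK4, whose overexpression is known to cause cell death, had log2 fold changes of 0.51 (SE 0.35, adjusted p = 0.226) in Col-0, 0.41 (SE 0.35, adjusted p = 0.302) in Cvi-0 and 0.91 (SE 0.35, adjusted p = 0.0271) in Col-S. Col-S ozone replicate 2 stood at 90.3 CPM beside 44.1 and 33.9 CPM, and the change was 0.39 (adjusted p = 0.294) without it. Without any 1 of the Col-S controls the change stayed at 0.91, with adjusted p values of 0.0605, 0.0607 and 0.0624. Those of CRK30 were 0.06, -0.33 and 0.68 and those of CRK40 0.38, -0.27 and 0.25, none of them called. With a replicate block the Col-S change of CRK30 was 0.75 (adjusted p = 0.0423), and without Col-S control replicate 3 it was 1.43 (adjusted p = 0.0031). In Col-0 and Col-S controls CRK40 held 28.6 ± 5.21 and 22.9 ± 0.474 CPM per kb of exon (SD, n = 3), within the spread of CRK18 at 25.0 ± 3.50 and 22.2 ± 3.17, and its nearest relative CRK39 rose by 4.13, 3.37 and 5.53. The 2 members under the filter were CRK25, with 0 to 10 counts in a library, and CRK33. CRK33 had no count outside the Cvi-0 ozone group, which held 6 counts. With 3 counts assumed over the Cvi-0 controls the ratio was 2.58, which leaves out the counting error of the 6 counts. CRK25 overlaps AT4G05190 on the other strand.

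Per exon length, the order of the family changed with ozone. CRK21 was highest in Col-0 controls (38.9 ± 3.41 CPM per kb) and in Col-S controls (34.6 ± 4.02), while CRK40 led in Cvi-0 controls (17.4 ± 2.95), within the spread of CRK4 at 14.8 ± 6.88. After ozone CRK11 led in Col-0 (104.2 ± 7.46 CPM per kb), CRK13 in Cvi-0 (511.4 ± 41.0) and CRK36 in Col-S (187.3 ± 6.24). In Col-S, CRK36 and CRK13 (179.5 ± 30.3) did not differ beyond their spread, nor did CRK19, CRK36 and CRK10 in Col-0 at 76.6 ± 13.1, 73.1 ± 8.60 and 72.8 ± 24.6.

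The response to ozone differed most between genotypes for CRK13 and CRK22, the pair that shares a long identical stretch. For the difference between the Cvi-0 and Col-0 responses, 5 members were called higher and 3 lower, where 11.1% and 10.3% of all tested genes were, and without Col-0 control replicate 2 the counts were 4 and 8. Without Col-0 control replicate 3 the higher count was 8. With all libraries, the tandem cluster held 3 of the 5 (CRK13, CRK18 and CRK22) and 2 of the 3 (CRK14 and CRK20). The members called lower only without Col-0 control replicate 2 are not named here. CRK13, whose overexpression is known to raise resistance to Pseudomonas syringae, measured 5.71, 9.08 and 4.695 CPM in the control libraries and 177.9, 118.8 and 198.6 CPM in the ozone libraries in Col-0. In Cvi-0 it went from the lowest controls to the highest ozone values, with 1.34, 2.37 and 1.17 CPM in the control libraries and 1336, 1241 and 1137 CPM in the ozone libraries. Col-S stood between, with 4.63, 6.74 and 4.496 CPM in the control libraries and 445, 356.5 and 502.1 CPM in the ozone libraries. The 3 ozone groups did not overlap. The rise in Cvi-0 exceeded that in Col-0 by 4.87 (SE 0.39, adjusted p = 8.79e-07) and the Col-S response minus that of Cvi-0 was -3.16 (SE 0.39, adjusted p = 0.000112).

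CRK22 was not called in Col-0, at 36.8, 31.6 and 30.9 CPM in the control libraries and 37.01, 35.5 and 35.6 CPM in the ozone libraries. In Cvi-0 it measured 8.34, 8.59 and 8.35 CPM in the control libraries and 326.7, 283.3 and 270.8 CPM in the ozone libraries, and in Col-S 33.04, 28.6 and 27.7 CPM in the control libraries and 65.2, 59.6 and 58.7 CPM in the ozone libraries. Cvi-0 had both the lowest controls and the highest ozone values, and the replicates lay close together. The change was 0.12 (SE 0.10, adjusted p = 0.313) in Col-0, 5.12 (SE 0.12, adjusted p = 2.67e-14) in Cvi-0 and 1.04 (SE 0.10, adjusted p = 9.26e-08) in Col-S. The Cvi-0 response exceeded that of Col-0 by 4.998 (SE 0.15, adjusted p = 2.02e-12), and that of Col-S exceeded Col-0 by 0.92 (SE 0.14, adjusted p = 0.0027). As CRK13 and CRK22 share sequence, the part of reads assigned to the wrong one of them in these rises was not tested.

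The ozone response of CRK14 and CRK29 was lower in Cvi-0 than in Col-0. CRK14 stood at 1.71, 7.81 and 3.61 CPM in the control libraries and 71.6, 107 and 99.4 CPM in the ozone libraries in Col-0. Cvi-0 libraries held 0.127, 0.473 and 0.458 CPM in the control libraries and 0.969, 1.204 and 1.103 CPM in the ozone libraries, and Col-S libraries 3.69, 4.06 and 5.09 CPM in the control libraries and 82.5, 132.1 and 124.4 CPM in the ozone libraries. The highest Cvi-0 ozone value lay below the lowest control of either other genotype. The change was 4.36 (SE 0.36, adjusted p = 1.57e-08) in Col-0, 1.51 (SE 0.66, adjusted p = 0.0508) in Cvi-0 and 4.72 (SE 0.36, adjusted p = 4.29e-09) in Col-S, and in Col-0 it was 5.10 (adjusted p = 1.44e-09) without Col-0 control replicate 2. The Cvi-0 change passed with several other settings, with adjusted p values of 0.0023 with DESeq2 and 0.0102 without Col-0 control replicate 2. The difference from Col-0 was -2.85 (SE 0.83, adjusted p = 0.0215). It was -3.59 (adjusted p = 0.00134) without Col-0 control replicate 2, -2.56 (adjusted p = 0.13) without Cvi-0 control replicate 2 and -2.70 (adjusted p = 0.0737) without Cvi-0 control replicate 3.

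CRK29, which is known to interact with CRK28, had overlapping controls in the 3 genotypes and a lower ozone level in Cvi-0. Col-0 libraries stood at 8.71, 7.98 and 7.79 CPM in the control libraries and 138.8, 70.1 and 127.3 CPM in the ozone libraries. Cvi-0 libraries stood at 7.19, 7.97 and 9.72 CPM in the control libraries and 20.5, 16.4 and 16.1 CPM in the ozone libraries, and Col-S libraries at 9.94, 7.51 and 8.95 CPM in the control libraries and 124.5, 66.3 and 117.7 CPM in the ozone libraries. Controls overlapped, while all Cvi-0 ozone values lay below all other ozone values. The change was 3.78 (SE 0.26, adjusted p = 2.27e-09) in Col-0, 1.09 (SE 0.25, adjusted p = 0.000988) in Cvi-0 and 3.55 (SE 0.26, adjusted p = 2.56e-09) in Col-S, and the Cvi-0 response minus that of Col-0 was -2.69 (SE 0.35, adjusted p = 7.27e-05). For its neighbour CRK28 the same difference was -0.11 (SE 0.24, adjusted p = 0.782) and was not called.

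CRK18 and CRK41 rose more in Cvi-0, from lower controls. In Col-0 CRK18 stood at 57.9, 61.3 and 46.5 CPM in the control libraries and 137.5, 131.5 and 155.4 CPM in the ozone libraries. In Cvi-0 it stood at 19.99, 14.6 and 18.4 CPM in the control libraries and 195.8, 172.9 and 177.2 CPM in the ozone libraries. The ozone libraries of Cvi-0 lay above those of Col-0. The changes were 1.36, 3.37 and 1.96 in Col-0, Cvi-0 and Col-S, and the difference between Cvi-0 and Col-0 was 2.01 (SE 0.19, adjusted p = 4.62e-06). The difference for CRK41 was 1.85 (SE 0.50, adjusted p = 0.0136), and 1.39 (adjusted p = 0.0833) without Cvi-0 control replicate 2.

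For the difference between the Col-S and Col-0 responses, 7 members were called higher (CRK7, CRK13, CRK22, CRK23, CRK24, CRK37 and CRK39) and 0 lower, where 2.94% and 0.325% of all tested genes were. At an unadjusted p under 0.05 edgeR gave 16 and 1, and DESeq2 called 11 and 0. Without Col-0 control replicate 2 the count was 1, CRK22, and it was also 1 without Col-S control replicate 1 and without Col-S control replicate 3. It was 3 without Col-0 ozone replicate 1 or 2, Col-S control replicate 2 or Col-S ozone replicate 3, and 11 without Col-0 control replicate 3. The CRK22 call held under all 24 alternatives. The differences of the other 6 members were smaller without Col-0 control replicate 2, as given with each gene. Without Col-S control replicate 1 or 3 they moved little, with CRK37 at 3.09 and 3.14 against 3.32 and CRK13 at 1.62 and 1.60 against 1.70, and their adjusted p values passed 0.05. The calls of CRK7 and CRK23, at adjusted p values of 0.0438 and 0.0462, also ended without single libraries of Cvi-0, which are outside the comparison.

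CRK37, CRK7 and CRK23 had the largest of these 7 differences. CRK37 measured 1.65, 9.57 and 1.55 CPM in the control libraries and 11.9, 24.7 and 23.6 CPM in the ozone libraries in Col-0. It measured 0.573, 0.582 and 0.305 CPM in the control libraries and 11.2, 13.7 and 11.7 CPM in the ozone libraries in Cvi-0, and 1.301, 3.25 and 1.54 CPM in the control libraries and 59.4, 126.7 and 90.02 CPM in the ozone libraries in Col-S. Col-S ozone libraries lay above all others, and Col-0 control replicate 2 was the highest control. The change was 2.18 (SE 0.50, adjusted p = 0.00133) in Col-0, 4.61 (SE 0.69, adjusted p = 1.3e-05) in Cvi-0 and 5.49 (SE 0.57, adjusted p = 2.14e-07) in Col-S, and in Col-0 it was 3.65 (adjusted p = 2.71e-06) without Col-0 control replicate 2. The Col-S response exceeded that of Col-0 by 3.32 (SE 0.74, adjusted p = 0.0205), and by 1.84 (adjusted p = 0.139) without that library.

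CRK7 measured 1.88, 17.6 and 2.99 CPM in the control libraries and 58.5, 59.1 and 91.02 CPM in the ozone libraries in Col-0. Cvi-0 values were 2.74, 1.49 and 2.8 CPM in the control libraries and 8.89, 12.5 and 10.6 CPM in the ozone libraries, and Col-S values 1.41, 2.49 and 1.998 CPM in the control libraries and 103.1, 162.4 and 136 CPM in the ozone libraries. All Cvi-0 ozone libraries lay below those of the other two genotypes, and 1 Col-0 control, replicate 2, reached above them. The change was 3.16 (SE 0.52, adjusted p = 5.8e-05) in Col-0, 2.22 (SE 0.59, adjusted p = 0.00278) in Cvi-0 and 6.08 (SE 0.62, adjusted p = 1.5e-07) in Col-S. The Col-0 change was 4.82 (adjusted p = 5.09e-09) without Col-0 control replicate 2. Col-S exceeded Col-0 by 2.92 (SE 0.76, adjusted p = 0.0438), and by 1.26 (adjusted p = 0.174) without Col-0 control replicate 2, and it exceeded Cvi-0 by 3.86 (SE 0.84, adjusted p = 0.0111).

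CRK23 showed 1.59, 4.17 and 1.65 CPM in the control libraries and 5.99, 13.6 and 15.6 CPM in the ozone libraries in Col-0. In Cvi-0 it showed 2.04, 0.946 and 1.83 CPM in the control libraries and 10.3, 9.33 and 12.8 CPM in the ozone libraries, and in Col-S 1.301, 1.15 and 1.45 CPM in the control libraries and 16.03, 38.7 and 36.97 CPM in the ozone libraries. Controls overlapped between genotypes, and each Col-S ozone library lay above every Col-0 ozone library. The change was 2.20 (SE 0.42, adjusted p = 0.000237) in Col-0, 2.80 (SE 0.45, adjusted p = 2.85e-05) in Cvi-0 and 4.54 (SE 0.46, adjusted p = 1.32e-07) in Col-S, and in Col-0 it was 2.85 (adjusted p = 7.3e-05) without Col-0 control replicate 2. The difference between Col-S and Col-0 was 2.35 (SE 0.62, adjusted p = 0.0462), or 1.70 (adjusted p = 0.22) without that library. For CRK24, which changed by 1.34, 1.61 and 2.61, the difference was 1.28 (SE 0.30, adjusted p = 0.0297), or 1.02 (adjusted p = 0.124) without that library.

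CRK39 stood at 4.06, 6.34 and 3.61 CPM in the control libraries and 86.4, 58.7 and 104.4 CPM in the ozone libraries in Col-0. Cvi-0 stood at 3.95, 2.73 and 2.698 CPM in the control libraries and 35.8, 35.4 and 24.3 CPM in the ozone libraries, and Col-S at 2.97, 2.82 and 3.31 CPM in the control libraries and 137.4, 116.1 and 167.4 CPM in the ozone libraries. The ozone groups did not overlap, in the order Cvi-0, Col-0, Col-S. Col-S exceeded Col-0 by 1.39 (SE 0.35, adjusted p = 0.0359), or 1.09 (adjusted p = 0.144) without Col-0 control replicate 2, and it exceeded Cvi-0 by 2.16 (SE 0.36, adjusted p = 0.0017). For CRK13 the excess of Col-S over Col-0 was 1.70 (SE 0.36, adjusted p = 0.0162), or 1.37 (adjusted p = 0.0627) without that library.

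**Figure D3:**
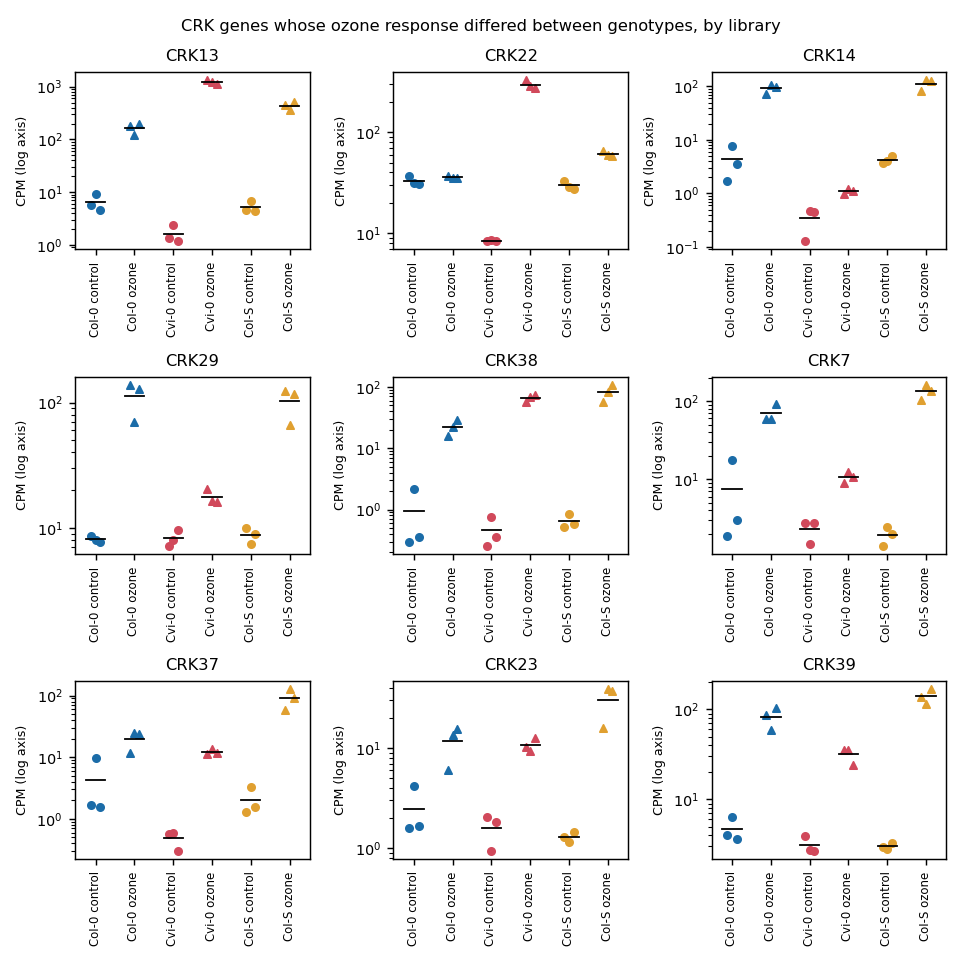
CPM (log axis) in each library for 9 CRK genes named for a difference of ozone responses between genotypes; circles are control libraries, triangles ozone libraries and the line is the mean of 3. CRK13 and CRK22 are highest in Cvi-0 ozone, CRK14, CRK29 and CRK7 are lowest there among the ozone groups, and 1 Col-0 control (replicate 2) lies above the other two for CRK7, CRK37, CRK23 and CRK38.

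Between the Col-S and Cvi-0 responses, 6 members were called higher in Col-S (CRK5, CRK7, CRK14, CRK20, CRK29 and CRK39) and 4 lower (CRK13, CRK18, CRK22 and CRK41), where 2.66% and 2.2% of all tested genes were. CRK29 exceeded by 2.46 (SE 0.35, adjusted p = 0.000448) and CRK14 by 3.21 (SE 0.84, adjusted p = 0.0362). For CRK22 the Col-S response minus that of Cvi-0 was -4.08 (SE 0.15, adjusted p = 4.46e-11). The CRK14 difference stayed between 2.92 and 3.29 without any 1 of 8 libraries of Col-S and Cvi-0, while its adjusted p passed 0.05 in each and reached 0.209 without Cvi-0 control replicate 2. The call of CRK41 ended without Cvi-0 control replicate 2, at -1.67 (adjusted p = 0.0983).

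Unexposed Cvi-0 rosettes held less of many CRK transcripts than Col-0. In Cvi-0 controls 16 members were lower than in Col-0 controls and 6 higher, where 11.8% and 12.2% of all tested genes were. The tandem cluster held 11 of the 16, with a median log2 difference of -1.06, against 5 of 17 tested others with a median of -0.26 and an all-gene median of 0.02. Without Col-0 control replicate 2 the lower calls were 9 and the tandem median -0.38, and without Cvi-0 control replicate 2 the lower calls were 10. The 7 lower calls lost without the Col-0 library were CRK6 (-2.38 with it and -1.10 without), CRK7 (-1.76 and -0.11), CRK10 (-0.76 and -0.73), CRK15 (-1.26 and -0.57), CRK17 (-0.47 and -0.38), CRK37 and CRK40 (-0.72 and -0.58). The 6 higher members were CRK5, CRK20, CRK24, CRK28, CRK32 and CRK42, and 3 were called higher without Col-0 control replicate 3 or without Cvi-0 control replicate 3.

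CRK41 showed the widest gap. Col-0 libraries held 11.5, 13.99 and 12.7 CPM in the control libraries and 90.6, 146.1 and 84.9 CPM in the ozone libraries. Cvi-0 libraries held 0.509, 0.145 and 0.356 CPM in the control libraries and 8.83, 11.6 and 7.99 CPM in the ozone libraries, and Col-S libraries 11.97, 10.2 and 12.6 CPM in the control libraries and 56.02, 100.3 and 84.2 CPM in the ozone libraries. Cvi-0 controls lay below every other library, and Cvi-0 ozone values below or among the controls of the other genotypes. The control difference of Cvi-0 from Col-0 was -5.35 (SE 0.38, adjusted p = 9.48e-09), and the log2 fold change with ozone was 3.07, 4.92 and 2.79 in Col-0, Cvi-0 and Col-S.

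CRK14 and CRK21, given above, differed between these controls by -3.56 (SE 0.52, adjusted p = 6.52e-05) and -3.17 (SE 0.24, adjusted p = 3.03e-08), and CRK14 by -2.81 (adjusted p = 0.000178) without Col-0 control replicate 2. CRK37 differed by -3.16 (SE 0.73, adjusted p = 0.00411), and by -1.69 (adjusted p = 0.0577) without Col-0 control replicate 2, and CRK36 by -2.51 (SE 0.43, adjusted p = 0.000342) and -1.71 (adjusted p = 0.00131). CRK18 and CRK22 differed by -1.65 (SE 0.14, adjusted p = 1.03e-07) and -1.97 (SE 0.11, adjusted p = 3.48e-10), and CRK13 by -1.96 (SE 0.31, adjusted p = 0.000129). CRK32 was the member with the largest higher value, with 17 counts in Cvi-0 (0, 9 and 8 by library) against 1 in Col-0. The ratio was 16.5, with an exact 95% counting interval of 2.58 to 687.6 that covers counting error only. The log2 difference was 3.59 (adjusted p = 0.0181), and 5.41 (adjusted p = 0.0302) without Col-0 control replicate 2. Without Col-0 control replicate 1 or 3 or Cvi-0 control replicate 2 or 3 it was 3.17 to 3.33 and not called (adjusted p = 0.0559 to 0.0712).

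CRK16 was low throughout. In Col-0 it stood at 2.65, 1.59 and 2.06 CPM in the control libraries and 3.39, 4.299 and 3.69 CPM in the ozone libraries. In Cvi-0 it stood at 0.828, 0.473 and 0.611 CPM in the control libraries and 1.197, 1.93 and 1.58 CPM in the ozone libraries, and in Col-S at 2.497, 1.91 and 2.54 CPM in the control libraries and 2.17, 4.96 and 3.88 CPM in the ozone libraries. Cvi-0 controls lay below all other controls. The control difference was -1.75 (SE 0.34, adjusted p = 0.00092) against Col-0, and that of Col-S against Cvi-0 was 1.90 (SE 0.33, adjusted p = 0.000399). With ozone it changed by 0.87 (SE 0.27, adjusted p = 0.0122) in Col-0, 1.34 (SE 0.36, adjusted p = 0.00281) in Cvi-0 and 0.66 (SE 0.27, adjusted p = 0.0411) in Col-S, and in Col-0 by 0.69 (adjusted p = 0.0653) without Col-0 control replicate 2. Its Col-S change was 0.36 (adjusted p = 0.281) without Col-S ozone replicate 2 and 0.54 (adjusted p = 0.14) without Col-S control replicate 2. It lay between 0.62 and 0.73, also not called, without control replicate 1 or 3 or ozone replicate 3.

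Between Col-S and Col-0 controls 0 members were called in either direction with edgeR and with DESeq2, where 0.339% of all tested genes were higher and 0.504% lower, and at an unadjusted p under 0.05 the counts were 0 higher and 4 lower. Without Col-0 control replicate 1, or without Col-S control replicate 3, 1 was called lower. Between Col-S and Cvi-0 controls 10 were higher and 6 lower, where 10.2% and 10.9% of all tested genes were, and 3 were lower without Col-S control replicate 2. With a replicate block 12 were higher, the added members being CRK6 (1.58, adjusted p = 0.0251) and CRK37 (2.102, adjusted p = 0.0181). Of the 22 members called between Cvi-0 and Col-0 controls, the Col-S mean was nearer to Col-0 for 20 and nearer to Cvi-0 for 2, CRK7 and CRK17. The same share over all tested genes was not computed. As few of all genes differed between Col-S and Col-0 controls, this count is not read as a trait of the family.

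**Figure D4:**
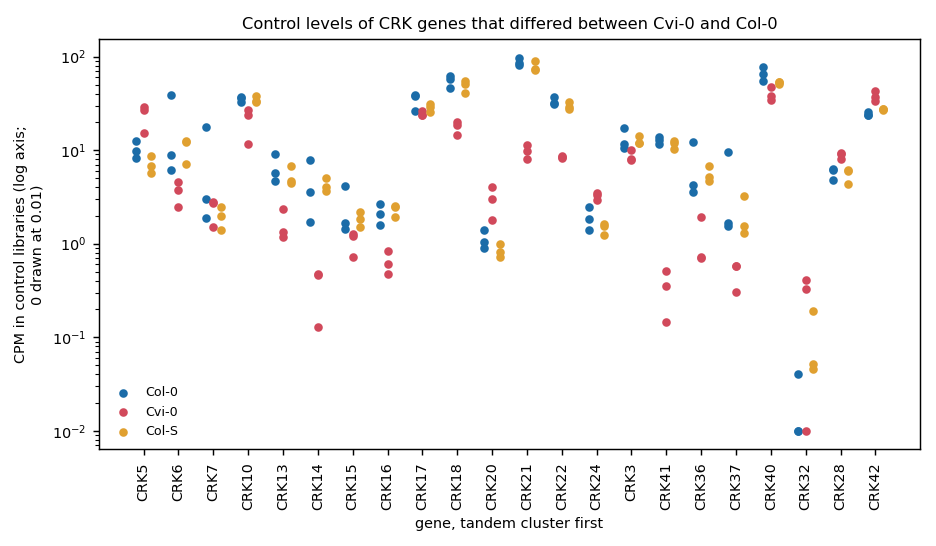
CPM (log axis) in each control library for the 22 CRK genes called between Cvi-0 and Col-0 controls, tandem cluster first; a value of 0 is drawn at 0.01. Cvi-0 points lie below those of Col-0 and Col-S for CRK41, CRK21, CRK22 and CRK14 and above them for CRK20 and CRK24, and single Col-0 points stand high for CRK6, CRK7 and CRK37.

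The promoter motif was set beside these patterns. Of the 28 members that rose in all 3 genotypes, 23 (82.1%) had at least 1 TTGAC and 14 (50%) at least 2, beside 58.8% and 25.3% of the 5174 genes that rose in all 3 genotypes and 44.1% and 14.1% of the 4820 that fell. Among the 6 tested members that neither rose nor fell in all 3 genotypes, 3 (50%) had at least 1 and 3 (50%) at least 2. CRK13, which rose in all 3 genotypes, and CRK22, which rose in Cvi-0 and Col-S, held none in this window, and CRK42, which fell, held 1.

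Other genes of the same setting moved as follows. All 12 pattern receptors and partners rose in each genotype, with median log2 fold changes of 2.61, 2.95 and 3.02 in Col-0, Cvi-0 and Col-S. They include the co-receptor BAK1 (2.96, 3.38 and 3.30), the NADPH oxidase RBOHD (2.77, 3.61 and 3.44), and the MAP kinase pathway members MKK4 (3.23, 3.42 and 3.82) and MPK3 (2.62, 2.69 and 3.52). Of 15 genes of salicylic acid and W-box factors, 13 rose in each genotype, with medians of 2.80, 4.58 and 4.85, and 1 fell in Cvi-0. WRKY40 (6.70, 8.27 and 8.55), WRKY33 (5.28, 5.82 and 6.07) and WRKY6 (5.58, 6.05 and 5.72), which bind W-boxes, and ICS1 (3.16, 6.51 and 5.49) were among those that rose. WRKY60 and PR1 were not. WRKY60 held 6.048, 6.258 and 6.617 CPM in Cvi-0 controls and 3.02, 3.25 and 2.343 CPM after ozone. PR1 varied widely in Col-0, with 17.37, 216.5 and 65.06 CPM in controls and 0.09817, 88.2 and 103.6 CPM after ozone.

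Of 5 wall-associated kinases, which bind pectin, 5, 4 and 5 rose, with medians of 1.51, 1.22 and 1.37. The log2 fold changes were 3.36, 3.41 and 5.03 for WAK3, 1.48, 0.88 and 1.69 for WAK4, 0.74, 1.22 and 0.90 for WAK2 and 1.51, 0.63 and 1.37 for WAK1, where the Cvi-0 change of WAK1 was not called. WAK3 stood at 21.19 CPM in Col-0 control replicate 2 against 5.887 and 7.172 CPM in replicates 1 and 3. The plasmodesmata-located proteins (PDLPs) carry the same extracellular motif without a kinase domain, and their 7 tested genes moved in both directions, with 2 rising in each genotype and 2, 3 and 3 falling in Col-0, Cvi-0 and Col-S, at medians of 0.02, -0.25 and -0.36. PDLP1 (0.79, 3.36 and 2.23) and PDLP5 (1.60, 2.57 and 3.32) rose, and PDLP2 (-0.86, -1.51 and -1.47) and PDLP3 (-1.48, -1.34 and -1.52) fell. Col-0 control replicate 2 held PDLP5 at 5.768 CPM, against 2.531 and 1.754 CPM in replicates 1 and 3.

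Of 6 further family genes outside the member list, 4 were tested, and 3, 3 and 4 rose, with medians of 1.60, 1.86 and 2.20. CRK9, which lies inside the array between CRK8 and CRK10, had log2 fold changes of 1.95, 2.33 and 2.76, CRK45 of 2.62, 4.84 and 4.65, AT4G00960 of 1.24, 1.39 and 1.64 and CRK27 of 0.63, -0.60 and 0.99, the last called in Col-S and not in Col-0 or Cvi-0. In Col-0 controls CRK45 stood at 37.64 CPM in replicate 2 against 4.768 and 8.204 CPM in replicates 1 and 3. Its Col-0 change without that library is not given here.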

How the data were processed

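The authors deposited, for each library, raw read counts by gene without normalization. Per the submitters' processing notes, FastQC, TopHat2, SAMtools, HTSeq and the build TAIR10 were used. Not given in the sources used here: tool versions, the strandedness of counting and the treatment of reads with several matches. Library preparation used version 2 of Illumina's TruSeq RNA kit, per the labels' protocols.

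The test was edgeR's quasi-likelihood test (edgeR 4.0.16, R 4.3.3) after filterByExpr (minimum count 10) and TMM scaling. It used 1 model of the 18 libraries, with 6 group means, 12 residual degrees of freedom and Benjamini-Hochberg adjustment over 20622 genes. CPM are TMM scaled, and adjusted p-values are edgeR's unless stated. Contrasts were ozone against control, differences of these responses, and controls between genotypes. The fit was run on counts simulated from Col-0 control means, with independent libraries and a single dispersion. Those counts held no replicate effect and no outlying library, so the check does not cover these. Per-length levels use RefSeq exon lengths within the files' gene spans. Sequences were read with Python 3.11.15 and Biopython 1.88. The files were read with the R packages jsonlite 2.0.0 and data.table (version 1.17.8).

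Members and lists were chosen with earlier results of these data known, so lists get counts and medians and no p. Values in every library are given for the 4 members per subset with the largest mean ozone change, and for members called with an absolute log2 value of at least 1 in differences of responses or of controls (up to the 5 largest per comparison). Members named outside this rule appear with fold changes only, or with library values chosen after they were seen (CRK18, and CRK4 and CRK6 in a single group). Context genes are up to 4 per list with the smallest p. CBP60G, WRKY60 and PR1 are named outside that rule. The library values of ICS1, CBP60G, CRK45, WAK3, PDLP5, WRKY60 and PR1 were chosen after they were seen. Alternatives were DESeq2 1.42.0, its size factors, no or a stricter low-count filter (at least 1 CPM in at least 3 libraries), groups alone, a replicate block, and each library left out.

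Replicate numbers were checked for pairing by the correlation of deviations from group means (log CPM, prior count 2). Every same-numbered pair exceeded 0.1 for the 3 pairs of control groups and for ozone against control in Col-S (0.128 to 0.279), but not for ozone against control in Col-0 (lowest 0.0496) or Cvi-0 (lowest 0.0399). In the comparisons where every such pair exceeded 0.1, the block added the calls of CRK30 (ozone in Col-S) and of CRK6 and CRK37 (Col-S against Cvi-0 controls) given in the results, and ended none. The labels do not say what same-numbered libraries share, and 44 of 45 same-numbered pairs matched best with their own number. Replicates differed by more than counting noise, with a chi-square per degree of freedom of 9.88 to 49.1.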

Additional observations from a re-analysis of the deposited data

Results flagged for a closer look

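Each result here is a difference between the ozone responses of 2 genotypes that passed the test of the difference itself (edgeR quasi-likelihood interaction contrast, adjusted p under 0.05, log2 scale). No cause was tested.

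Between Cvi-0 and Col-0, the response in Cvi-0 was higher for CRK22 (4.998), CRK13 (4.87), CRK38 (2.62), CRK18 (2.01) and CRK41 (1.85), and lower for CRK14 (-2.85), CRK29 (-2.69) and CRK20 (-1.71). The calls of CRK13, CRK18, CRK20, CRK22 and CRK29 held under all 24 alternatives, while those of CRK38, CRK41 and CRK14 ended when 1 control library was left out.

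Between Col-S and Col-0, the response in Col-S was higher for CRK37 (3.32), CRK7 (2.92), CRK23 (2.35), CRK13 (1.70), CRK39 (1.39), CRK24 (1.28) and CRK22 (0.92). The CRK22 call held under all 24 alternatives, and each of the other calls ended without Col-0 control replicate 2. Calls held under 9 alternatives for CRK7, 10 for CRK23, 15 for CRK39, 16 for CRK24, 20 for CRK37 and 21 for CRK13.

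Between Col-S and Cvi-0, the response in Col-S was higher for CRK7 (3.86), CRK14 (3.21), CRK29 (2.46), CRK20 (2.16), CRK39 (2.16) and CRK5 (1.56), and lower for CRK22 (-4.08), CRK13 (-3.16), CRK41 (-2.13) and CRK18 (-1.40). The calls of CRK14 and CRK41 held under 16 and 23 of the 24 alternatives, and the others under all.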

How the results depend on the processing

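Of 160 member calls over the 9 comparisons, 129 held under every one of the 24 alternatives in which the gene was tested. For CRK26 with ozone in Cvi-0, counted among these, that was 23 alternatives. Without the low-count filter, the other members' median ozone change was 2.17 in Col-0 and 3.21 in Col-S, because CRK25 and CRK33 then enter. For the Cvi-0 minus Col-0 response, the members called higher numbered 8 with DESeq2 and 8 with a replicate block. For the Col-S minus Cvi-0 response they numbered 8 with a replicate block. For the Col-S minus Col-0 response they numbered 11 with DESeq2, 12 with a replicate block and 2 with the groups of the comparison alone. Beyond the calls given in the results and these counts, the cause of the changes was not tested.

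The replicate block made 31, 31 and 33 ozone calls higher in Col-0, Cvi-0 and Col-S. It added calls for CRK40 in Col-0 (0.38, adjusted p = 0.0458), CRK6 in Cvi-0 (1.24, adjusted p = 0.0378) and CRK14 in Cvi-0 (1.59, adjusted p = 0.0109). In Col-0 and Cvi-0 some same-numbered pairs of control and ozone libraries correlated below 0.1. The block ended no member call in any of the 9 comparisons. Of 45 same-numbered pairs, 35 correlated above 0.1, and 44 matched best with their own number, the exception being replicate 2 of Col-0 control and ozone.

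Leaving out each library in turn, the counts of members called ranged as follows. The Cvi-0 minus Col-0 response had 4 to 8 higher and 2 to 8 lower, and the Col-S minus Col-0 response 1 to 11 higher. Cvi-0 minus Col-0 controls had 3 to 6 higher and 9 to 16 lower, Col-S minus Cvi-0 controls 3 to 6 lower, and Col-S minus Col-0 controls 0 to 1 lower. The median ozone change ranged from 1.95 to 2.85 (tandem cluster) and 2.54 to 3.15 (others) in Col-0, and from 2.63 to 3.38 (tandem cluster) in Col-S. The others' median ranged from -0.20 to 0.28 for the Cvi-0 minus Col-0 response and from 0.11 to 0.65 for the Col-S minus Cvi-0 response, and the tandem median from -1.40 to -0.38 for Cvi-0 minus Col-0 controls.

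Leaving out 1 library, CRK30 in Col-0, not called, ranged from -0.078 to 0.37, below 0 without Col-0 control replicate 1, Col-0 control replicate 2 or Col-0 ozone replicate 2. CRK40 in Col-S, not called, ranged from -0.026 to 0.42, below 0 without Col-S ozone replicate 2. At this depth, levels under about 0.2 CPM rest on 3 counts or fewer a library, which limits CRK25, CRK26, CRK31, CRK32 and CRK33 in controls.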
